A study of Mus musculus with 8 samples.

Results

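Cartilage holds, beside its collagens and aggrecan, a group of less abundant secreted and cell-surface proteins that few other tissues make. The levels of 10 genes for such proteins, *Cytl1*, *Snorc*, *Cnmd*, *Ucma*, *Scrg1*, *Clec3a*, *Cilp*, *Cilp2*, *Prg4* and *Mia*, were taken by name from the 52325 gene identifiers in each library, each identifier counted once. The list was drawn up with earlier results of these data known, and all 10 were found and passed the filter on low values given with the test. *Ucma* was higher in *Mir140*-null than in wild-type chondrocytes, *Clec3a*, *Mia* and *Scrg1* were lower, and the other 6 genes did not pass the test. *Clec3a*, whose mean in null libraries was 0.502 of that in wild-type libraries, was the only one called in all 19 alternative settings of the analysis.

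RNA from costal (rib) chondrocytes, freed from cartilage by collagenase, was sequenced from 4 wild-type control libraries and 4 *Mir140*-null libraries. All were from mice 7 d old on a C57BL/6J background. The null allele removes the *Mir140* locus from every cell and not from cartilage alone. It was made with CRISPR/Cas9 guides in zygotes of mixed C57BL/6 and CBA/ca origin, and backcrossing and heterozygous crosses then gave separate wild-type and null lines, so a line and its genotype cannot be told apart. *Mir140* lies within *Wwp2* and gives rise to miR-140-5p and miR-140-3p, which are abundant in chondrocytes. A microRNA pairs through its seed, bases 2 to 8 from the 5′ end, with matching words in the 3′UTR of messenger RNAs and lowers their stability or translation.

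The proteins differ in kind. Chondromodulin (*Cnmd*) is made as a membrane protein whose outer part is released and keeps blood vessels out of cartilage, and *Snorc* encodes a small transmembrane proteoglycan of chondrocytes. *Mia*, *Ucma*, *Cytl1* and *Scrg1* encode small secreted proteins. *Clec3a* encodes a C-type lectin of the cartilage matrix, and *Cilp* and *Cilp2* encode larger matrix proteins, of which CILP binds TGF-β1. *Prg4* encodes lubricin, the boundary lubricant made by cells at the cartilage surface.

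Levels are in TPM, transcripts of a gene per 1000000 transcripts of the library, a unit scaled by length, so genes can be compared with each other within a library. Read counts cannot be had from them, the depth of a library is unknown, and errors from counting were not computed. Errors are SD over n = 4 libraries of a genotype. Differences are log2 fold changes of TPM + 1 (null minus wild-type) from a limma fit over the 17177 genes that reached 0.5 TPM in 4 or more libraries, with two-sided p-values adjusted by the Benjamini-Hochberg method and called under 0.05. The labels name separate replicates but not the number of animals behind each, so p-values measure only the spread between these libraries, which may in part be technical.

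Chondrocyte markers were detected in every library, with *Col2a1* between 34418 and 61630 TPM. *Mir140* itself was listed at 0 in 7 libraries, wild-type ones included, and its 1 value above 0 (8.86 TPM) belonged to a library labelled null (replicate 2), so these values do not check the labels. Mitochondrially encoded genes took 4.06% to 6.99% of TPM in wild-type and 8.41% to 10.1% in null libraries. The summed fibroblast and perichondrium markers were 539 and 564 TPM in null libraries 1 and 2, against 2512 to 4790 TPM in wild-type and 4162 and 2863 TPM in null libraries 3 and 4. The marker *Pdgfra* of this list went the other way, at 34.5 and 36.5 TPM in null libraries 1 and 2 against 11.8 to 19.8 TPM in wild-type. It was called higher in the null (log2 fold change 1.03, limma adjusted p = 0.00846). Null libraries 1 and 2 stood apart in the sum, and 21.1% of tested genes were lower in both of them than in the other 6 libraries. The part of mitochondrial share and fibrous tissue in the genotype differences was not tested. For the members, calls that change without null libraries 1 and 2 are given with their values. For other genes such values are not given, so their calls rest on all 8 libraries. Over all tested genes 2897 were called with all 8 libraries and 567 without null libraries 1 and 2. That alternative and its counterpart, without null libraries 3 and 4, were chosen after the data were seen.

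Match of the members to the 2 forms of miR-140-3p was looked at first, since the allele removes both. The miR-140-3p.2 form is the annotated one and miR-140-3p.1 starts 1 base later, which shifts the seed. The sequence below is that of RefSeq (build GRCm38.p6, chr8:107551288-107551308, plus strand), the shifted form being the same sequence without its first base, and capitals mark the seed.
miR-140-3p.2: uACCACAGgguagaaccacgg
miR-140-3p.1: aCCACAGGguagaaccacgg

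The words that pair with these seeds are CTGTGGT and CCTGTGG, and they were searched on the sense strand of the longest annotated 3′UTR. An annotated 3′UTR was present for 9 of the 10 genes, the exception being *Clec3a*, whose annotated transcript ends with its coding part. *Ucma*, the member that rose, held 1 match to miR-140-3p.2 at bases 198 to 204 of a 3′UTR of 337 bases. The site is shown with its flanks (GRCm38, chr2:4985599-4985625, plus strand), capitals marking the word.
*Ucma* 3′UTR: gagcaaccatCTGTGGTtcttcccagc

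None of the other 8 genes held that word, and none of the 9 held the miR-140-3p.1 word. Only matches to all of bases 2 to 8 were searched, so shorter sites were not counted. The *Ucma* word contains CTGTGG, which the paper describes as a shorter site for miR-140-3p.1. Among all 12988 tested genes with an annotated 3′UTR, 19.0% held the miR-140-3p.2 word and 20.2% the miR-140-3p.1 word. Members have short 3′UTRs, so the share was also taken over 3′UTRs of 150 to 600 bases, a range chosen after the members' lengths were known. Of 3105 such genes 5.28% held the miR-140-3p.2 word, beside 1 of the 7 members in that range. The miR-140-3p.1 word was in 6.86% of these genes and in 0 of the 7 members. A match is a description of letters and not a tested site. *Scrg1*, through its human counterpart, was the only member on the human lists of predicted targets that accompany the study, under miR-140-3p.1. The 3′UTR of mouse *Scrg1*, 187 bases long, held neither word. Those lists come from TargetScan, and the paper describes further site types for it, such as a match to fewer seed bases beside an A. Such sites were not searched here. miR-140-5p was not searched here.

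In the wild-type chondrocyte libraries the 10 genes spanned a wide range of levels. *Cnmd* was highest at 2785 ± 53.5 TPM, rank 26 of 21761 protein-coding genes, followed by *Mia* at 1978 ± 148 TPM, rank 41. *Snorc* (951 ± 131 TPM) and *Clec3a* (892 ± 80.5 TPM) followed, and the ranges of these neighbours overlapped. Next came *Ucma* (735 ± 68.9 TPM), *Cytl1* (255 ± 14.1 TPM) and *Scrg1* (174 ± 18.1 TPM), each below its neighbour in every comparison of wild-type libraries. *Cilp2* (63.4 ± 6.76 TPM) and *Prg4* (44.1 ± 11.7 TPM) overlapped, and *Cilp* was lowest at 15.8 ± 8.12 TPM, rank 4141. Together the 10 genes made up 0.757% to 0.823% of all TPM in wild-type libraries and 0.621% to 0.776% in null libraries, and these ranges overlapped.

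**Figure D1:**
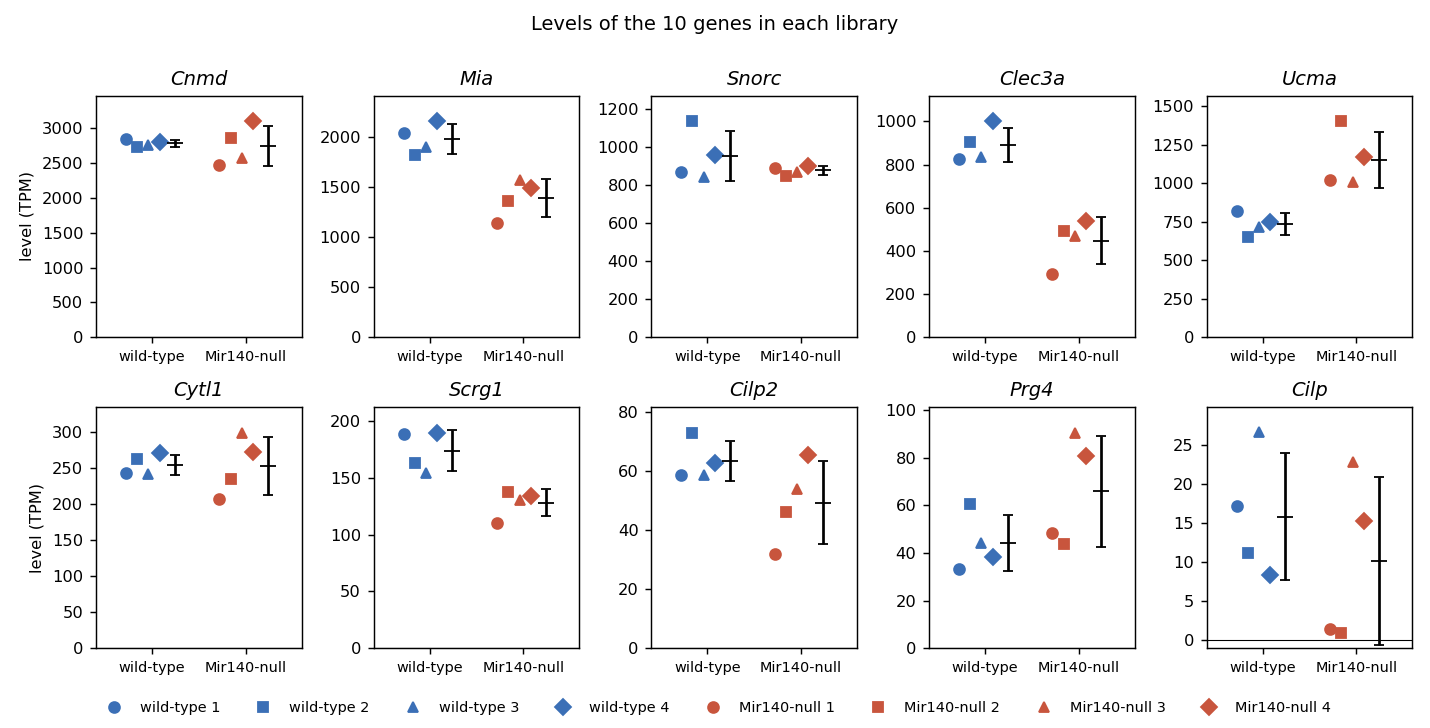
Level of each of the 10 genes in TPM (vertical axes, linear and of different height) in the 4 wild-type (blue) and 4 *Mir140*-null (red) libraries, with marker shape giving the replicate number and the black bar the mean ± SD of n = 4. *Clec3a*, *Mia* and *Scrg1* are lower in every null library than in every wild-type library, *Ucma* is higher, and *Cilp* is near 1 TPM in null libraries 1 and 2 alone.

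Of the 10 genes, 1 was called higher in the null, against 10.5% of all tested genes, and 3 were called lower, against 6.4% of all tested genes. The same 4 genes had genotypes whose libraries did not overlap, 1 higher beside 15.7% of all tested genes and 3 lower beside 10.2%. Over the 10 genes the median log2 fold change was -0.25, and over all tested genes it was -0.01. A list of 10 genes is short, and these shares are given as a description only.

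*Clec3a* (ENSMUSG00000008874, chr8:114418086-114425846, GRCm38) was at 827, 905, 834 and 1000 TPM in wild-type replicates 1 to 4. It was at 293, 491, 469 and 540 TPM in null replicates 1 to 4. Every null library was below every wild-type library, and null replicate 1 was the lowest. The mean went from 892 ± 80.5 to 448 ± 108 TPM, and the log2 fold change was -1.02 (SE 0.19, 95% interval -1.46 to -0.59, limma adjusted p = 0.0139). The call was made in all 19 alternative settings, with adjusted p between 0.00628 and 0.0415. With null libraries 3 and 4 alone against wild-type it was -0.82 (adjusted p = 0.0341), the only call among the 10 genes there. In RNA from a bulk preparation, fewer cells that express a gene and less of its RNA per cell cannot be told apart.

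*Mia*, also known as cartilage-derived retinoic acid-sensitive protein, encodes a small secreted protein with an SH3-like fold (ENSMUSG00000089661, chr7:27179742-27181157). Its level was 2042, 1822, 1894 and 2152 TPM in the wild-type libraries. It was 1142, 1359, 1569 and 1488 TPM in the null libraries. The genotypes did not overlap, and the lowest values were those of null replicates 1 and 2. *Mia* fell by 0.52 on the log2 scale (SE 0.12, limma adjusted p = 0.0254), from 1978 ± 148 to 1390 ± 186 TPM. The adjusted p was 0.0581, 0.0591 and 0.0729 without wild-type replicate 1, 3 or 4, and 0.0651 without null replicate 2. It was 0.0653 with no filter on low values and 0.0935 with null libraries 3 and 4 alone (log2 fold change -0.37). *Gm21983*, a gene annotated over *Mia* on the same strand, was at 0 to 1.89 TPM, and reads from sequence that both hold could be assigned to either.

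*Scrg1*, the scrapie responsive gene, encodes a small cysteine-rich secreted protein (ENSMUSG00000031610, chr8:57455923-57477585). It was at 189, 163, 154 and 189 TPM in wild-type and at 110, 138, 130 and 134 TPM in null libraries. The genotypes did not overlap, and the gap between the nearest libraries was small. *Scrg1* fell by 0.44 on the log2 scale (SE 0.11, limma adjusted p = 0.0350), from 174 ± 18.1 to 128 ± 12.1 TPM. This call was the least stable of the 4. It was lost in 13 of 19 alternative settings, among them the removal of any 1 of the 8 libraries (adjusted p 0.0533 to 0.0932) and median-ratio scaling (adjusted p = 0.0599). With null libraries 3 and 4 alone the log2 fold change of *Scrg1* was -0.39 (limma adjusted p = 0.121). The direction was kept in all 19, though most of these could not have reversed it.

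*Ucma* encodes Gla-rich protein, a secreted protein modified by vitamin K-dependent carboxylation and known from the resting chondrocytes of the growth plate (ENSMUSG00000026668, chr2:4976122-4985748). It was at 819, 653, 718 and 750 TPM in wild-type libraries. It was at 1023, 1400, 1007 and 1168 TPM in null libraries. All null libraries were above all wild-type libraries, and null replicate 2 was the highest. *Ucma* rose by 0.64 on the log2 scale (SE 0.13, 95% interval 0.34 to 0.93, limma adjusted p = 0.0179), from 735 ± 68.9 to 1150 ± 182 TPM. Without wild-type replicate 3 the log2 fold change was 0.63 and the adjusted p 0.0513, and with null libraries 3 and 4 alone they were 0.57 and 0.0637.

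**Figure D2:**
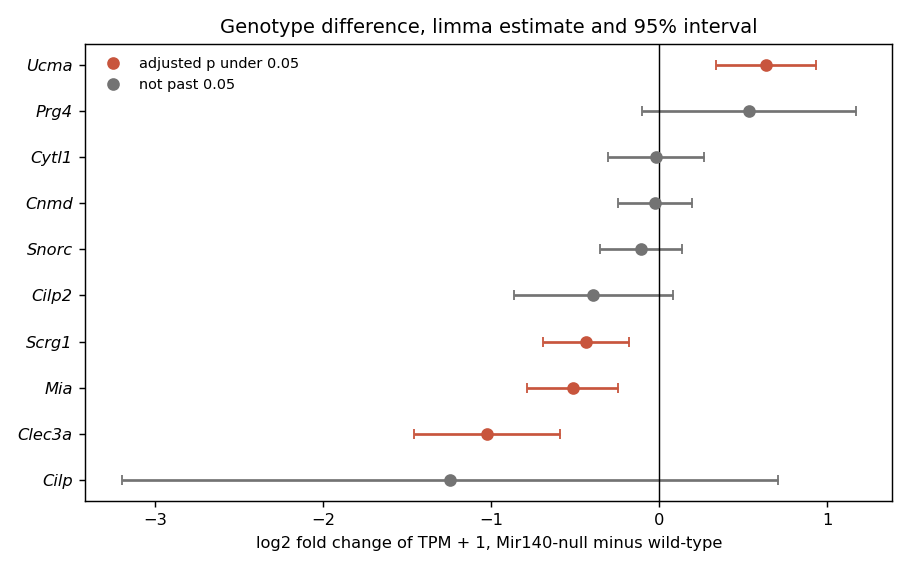
Log2 fold change of TPM + 1, null minus wild-type (horizontal axis), for the 10 genes, with the limma estimate as a point and its 95% interval as a bar (n = 4 libraries per genotype). The 4 genes with adjusted p under 0.05 are in red, and the interval of *Cilp*, from -3.20 to 0.71, is the widest.

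Ratios of 2 genes within a library do not depend on how libraries are scaled against each other. The ratio of *Ucma* to *Clec3a* was 0.991, 0.722, 0.861 and 0.750 in the wild-type libraries and 3.49, 2.85, 2.15 and 2.16 in the null libraries. *Clec3a* was thus above *Ucma* in every wild-type library, and *Ucma* was above *Clec3a* in every null library. The ratio of *Clec3a* to *Cnmd*, the most abundant member and one that did not pass the test, was 0.290 to 0.357 in wild-type and 0.119 to 0.183 in null libraries. For *Mia* to *Cnmd* it was 0.667 to 0.768 and 0.463 to 0.611, and for *Ucma* to *Cnmd* 0.239 to 0.287 and 0.377 to 0.489. None of these 3 ratios overlapped between genotypes.

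Against type II collagen the 3 genes behaved differently from each other. *Col2a1* was at 57785 ± 6626 TPM in wild-type libraries against 41414 ± 7681 TPM in null libraries (log2 fold change -0.49, limma adjusted p = 0.0695). The ratio of *Mia* to *Col2a1* was 0.0297 to 0.0395 in wild-type and 0.0281 to 0.0447 in null libraries, so the genotypes overlapped on this ratio. The ratio of *Clec3a* to *Col2a1* was 0.0134 to 0.0174 in wild-type and 0.0085 to 0.0133 in null libraries, with a narrow gap. The ratio of *Ucma* to *Col2a1* was 0.0106 to 0.0150 in wild-type and 0.0245 to 0.0297 in null libraries. The ratios are given with no test, since the genes were paired after their values were seen.

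**Figure D3:**
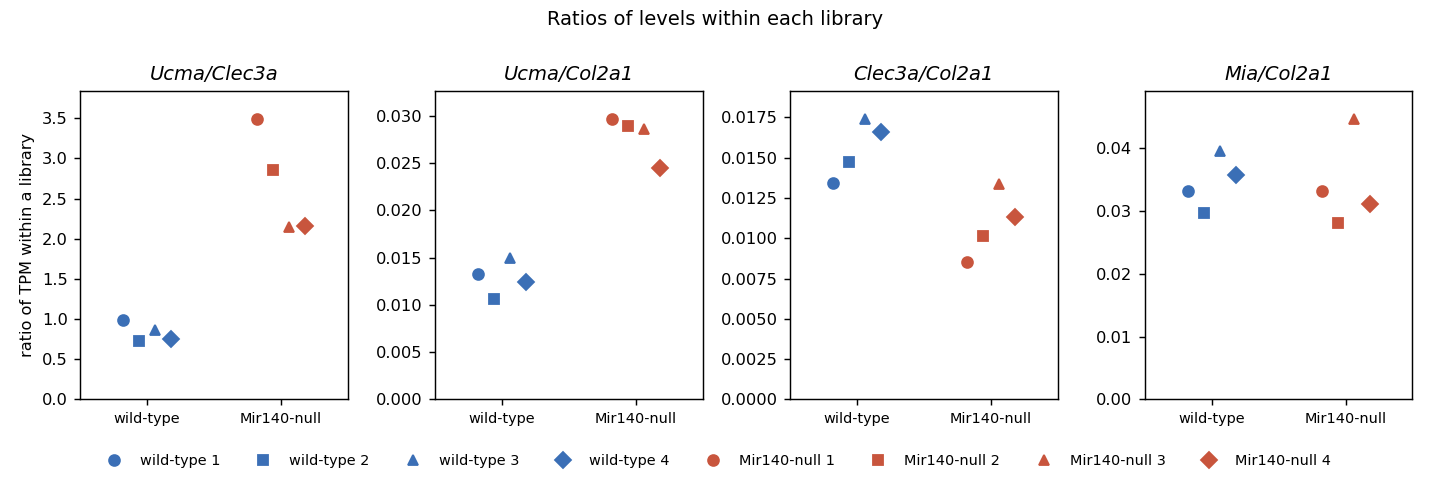
Ratio of the TPM of 2 genes within each library (vertical axes, no unit, from 0) for wild-type (blue) and *Mir140*-null (red) libraries, with marker shape giving the replicate number. *Ucma* to *Clec3a* is under 1 in all wild-type libraries and over 2 in all null libraries, and *Mia* to *Col2a1* overlaps between genotypes.

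*Cnmd* did not pass the test, and its estimate was narrow. It was at 2851, 2731, 2755 and 2803 TPM in wild-type libraries, with a coefficient of variation of 1.92%. It was at 2470, 2860, 2567 and 3099 TPM in null libraries, with a coefficient of variation of 10.4%. The null libraries lay on both sides of the wild-type range. The log2 fold change was -0.02 (95% interval -0.24 to 0.19, limma adjusted p = 0.881), and its sign changed between scalings.

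*Snorc*, the other membrane protein, was at 871, 1134, 844 and 955 TPM in wild-type and at 887, 846, 870 and 901 TPM in null libraries. The null libraries lay inside the wild-type range. Its log2 fold change was -0.11 (95% interval -0.35 to 0.14, limma adjusted p = 0.509). *Cytl1*, which encodes a cytokine-like secreted protein, was at 244, 262, 242 and 271 TPM in wild-type and at 208, 235, 299 and 272 TPM in null libraries. Null libraries 1 and 2 were below all wild-type libraries, and null libraries 3 and 4 were above them. The log2 fold change of *Cytl1* was -0.02 (95% interval -0.30 to 0.27, limma adjusted p = 0.931), with a sign that changed between scalings.

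*Cilp*, cartilage intermediate layer protein, varied more between libraries of the null genotype than any other member (ENSMUSG00000042254, chr9:65265180-65280605). It was at 17.1, 11.1, 26.6 and 8.28 TPM in wild-type and at 1.39, 0.931, 22.8 and 15.2 TPM in null libraries. Null libraries 1 and 2 were below all others, and null libraries 3 and 4 were inside the wild-type range. The log2 fold change over all libraries was -1.24 (95% interval -3.20 to 0.71, limma adjusted p = 0.336). With null libraries 1 and 2 alone against wild-type it was -2.84 (adjusted p = 0.0111), and with null libraries 3 and 4 alone it was 0.35 (adjusted p = 0.676), so the sign rests on which null libraries enter. With 1 factor of unwanted variation taken out *Cilp* was called (limma adjusted p = 0.0400), but the estimate stayed at -1.24 and only its SE fell, from 0.85 to 0.35. That factor is taken from residuals after the genotype fit, so it cannot adjust the genotype difference for the split between null libraries.

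The level of *Cilp* moved with that of fibrous tissue genes. *Col1a1*, the type I collagen chain of fibroblasts and osteoblasts, was at 1544, 793, 1483 and 856 TPM in wild-type and at 47.8, 50.1, 1326 and 898 TPM in null libraries. *Cilp* differed 28.6-fold and *Col1a1* 32.3-fold between the highest and lowest library, whereas their ratio differed 3.01-fold. Genes lower in null libraries 1 and 2 than in the other 6 were counted in each marker list, beside 21.1% of all tested genes. The marker counts include genes that did not pass the filter on low values, which the 21.1% leaves out. Some of these are near 0, such as the macrophage marker *Adgre1* at 0 to 0.169 TPM. They were 5 of 6 fibroblast and perichondrium, 4 of 4 tendon and ligament and 7 of 10 superficial zone and fibrous tissue genes. The superficial zone list shares *Scx*, *Mkx* and *Thbs4* with the tendon list and *Dpt* with the fibroblast list. The pattern was not limited to fibrous tissue. It held for 4 of 5 endothelial genes and for 4 of 6 osteoblast, 4 of 6 erythroid and 4 of 6 macrophage and leukocyte genes. Skeletal muscle gave 3 of 6, chondrocyte 1 of 9, neutrophil 0 of 5 and adipocyte 0 of 4. *Cd14* of the macrophage and leukocyte list went the other way, at 116 and 107 TPM in null libraries 1 and 2. It was at 13.5 to 21.4 TPM in wild-type and at 40.2 and 38.9 TPM in null libraries 3 and 4 (limma adjusted p = 0.0174). The sum of that list was therefore highest in null libraries 1 and 2, at 133 and 124 TPM against 35.1 to 71.0 TPM in the others. The summed tendon and ligament markers were 159 to 403 TPM in wild-type and 22.5, 25.4, 316 and 211 TPM in null replicates 1 to 4. No marker of these lists was at 0 in every library. Among 8010 genes compared over the 8 libraries, the gene whose level was most like that of *Cilp* was *Postn*, which encodes periostin of fibrous connective tissue (r = 0.994), followed by *Chodl* (r = 0.993). The part of fibrous tissue in the level of *Cilp* was not tested.

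*Cilp2*, its paralog, was at 58.7, 73.1, 59.0 and 62.9 TPM in wild-type and at 32.2, 46.1, 54.1 and 65.5 TPM in null libraries. Null libraries 1 and 2 were again below all others, though by far less than for *Cilp*. Its log2 fold change was -0.39 (95% interval -0.86 to 0.08, limma adjusted p = 0.218). With null libraries 1 and 2 alone it was -0.70 (adjusted p = 0.0377), and with null libraries 3 and 4 alone -0.08 (adjusted p = 0.749). *Mia*, *Cilp*, *Cilp2* and *Cytl1* were the 4 members lower in null libraries 1 and 2 than in the other 6, a pattern that 21.1% of all tested genes had.

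*Prg4* was at 33.5, 60.4, 44.4 and 38.2 TPM in wild-type and at 48.3, 44.0, 90.5 and 80.9 TPM in null libraries. Null libraries 3 and 4 were above all others, and null libraries 1 and 2 lay inside the wild-type range. Its log2 fold change was 0.53 (95% interval -0.10 to 1.17, limma adjusted p = 0.214), and 0.97 with null libraries 3 and 4 alone (adjusted p = 0.0795). *Prg4* therefore did not share the drop of *Cilp* in null libraries 1 and 2. *Tpr*, annotated over *Prg4* on the opposite strand, was at 126 to 150 TPM in wild-type and at 302, 165, 156 and 262 TPM in null libraries, and how strand was treated in the quantification is not given in the sources used here.

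**Figure D4:**
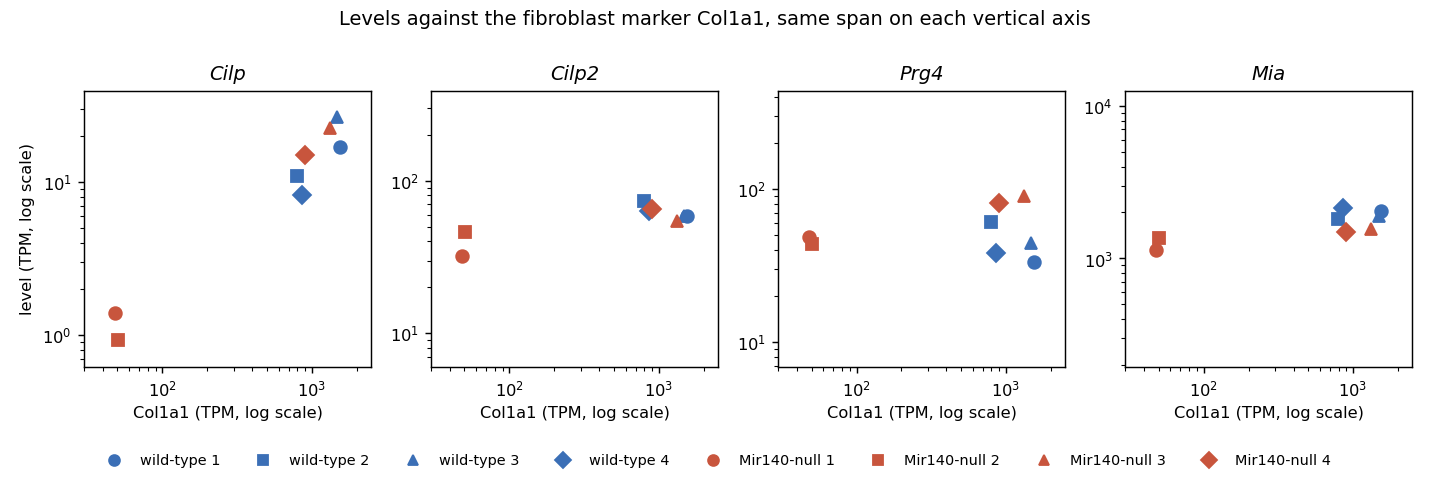
Level of 4 members (vertical axes, TPM, log scale, the same span in each panel) against *Col1a1* (horizontal axes, TPM, log scale), 1 point per library, wild-type in blue and *Mir140*-null in red with marker shape giving the replicate number. Null libraries 1 and 2 lie at 47.8 and 50.1 TPM of *Col1a1*, where *Cilp* is at 1.39 and 0.931 TPM and *Prg4* at 48.3 and 44.0 TPM.

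For each other member the genes most alike in level over the 8 libraries were taken from the same 8010 genes. With so many genes and 8 libraries, high values of r arise for every member, so they are descriptions only. For *Clec3a* they were *Sprr1a* (r = 0.988) and *Ndufa4l2* (r = 0.987), for *Mia* *Mthfsd* (r = 0.991) and *Omd* (r = 0.989), and for *Scrg1* *Susd5* (r = 0.973) and *Tubb2a* (r = 0.972), all 6 called lower in the null. For *Ucma* they were *Sec61a1* (r = 0.977) and *Akap10* (r = 0.973), both called higher. Likeness was taken over libraries of both genotypes, so genes most like a called member share its direction by selection, and these calls add no support. *Cilp2* was most like *Adamts3*, which encodes a procollagen-processing protease (r = 0.985), and *Ptpn4* (r = 0.972). *Prg4* was most like *Tm4sf1* (r = 0.977) and *Zc3h13* (r = 0.969), and *Cytl1* most like *Lamtor1* (r = 0.963) and *Klf7* (r = 0.956). *Snorc* was most like *Col27a1*, the gene of a fibrillar collagen of cartilage (r = 0.939), and *Smg6* (r = 0.919), and *Cnmd* like *Dop1a* (r = 0.927) and *Fscn1* (r = 0.909).

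Proteins related in structure to the members gave no calls. Among 10 tested relatives, such as tenomodulin (*Tnmd*), the *Itm2* family of proteins with a BRICHOS domain, and *Otor*, *Mia2* and *Mia3* of the MIA family, 0 passed the limma test and 1 was at an unadjusted p under 0.05. That gene was *Mia2*, which encodes an endoplasmic reticulum export protein, at 127 ± 34.2 TPM in wild-type against 219 ± 75.6 TPM in null libraries (log2 fold change 0.76, limma adjusted p = 0.0995), a value opposite in sign to that of *Mia*. *Tnmd*, the paralog of *Cnmd* in tendon, was at 79.1 to 217 TPM in wild-type and at 10.4, 10.6, 168 and 118 TPM in null libraries, low in the same libraries as *Cilp*.

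The main matrix genes around the members were called in both directions. Of 15 core cartilage matrix genes, 3 were higher, 6 lower and 6 did not pass, beside 10.5% higher and 6.4% lower among all tested genes. The 9 called kept their sign under the 3 scalings tried. *Chad*, which encodes chondroadherin, an adhesive leucine-rich protein, fell from 1346 ± 335 to 573 ± 67.0 TPM (log2 fold change -1.21, limma adjusted p = 0.00801). *Hapln1*, encoding the link protein, fell from 358 ± 16.1 to 241 ± 22.7 TPM (-0.57, limma adjusted p = 0.0100). *Epyc*, *Col9a1*, *Col9a3* and *Col11a1* were also called lower (limma adjusted p = 0.0216, 0.0467, 0.0266 and 0.0469). *Acan*, encoding aggrecan, rose from 552 ± 105 to 1010 ± 98.5 TPM (0.88, limma adjusted p = 0.0107). *Chadl* and *Matn4* were also called higher (limma adjusted p = 0.0359 and 0.0498), and the genotypes overlapped for *Matn4*. The direction of *Clec3a*, *Mia* and *Scrg1* was thus that of *Chad* and *Hapln1*, and the direction of *Ucma* that of *Acan*.

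Transcription factors that control cartilage genes gave 0 calls of 10 tested by limma, with 3 at an unadjusted p under 0.05. *Sox9*, the master regulator of chondrocytes, was at 146 ± 20.7 TPM in wild-type against 178 ± 43.4 TPM in null libraries (log2 fold change 0.25, limma adjusted p = 0.389). Of 10 tested genes that mark stages of the growth plate, 1 was lower, beside 6.4% of all tested genes. It was *Panx3*, an ATP-release channel of prehypertrophic cells, at 8.08 ± 2.24 and 3.52 ± 1.22 TPM (log2 fold change -1.02, limma adjusted p = 0.0255). *Sfrp5*, a resting zone gene like *Ucma*, was at 7.97 ± 2.80 and 5.34 ± 2.77 TPM (limma adjusted p = 0.279). Among 10 superficial zone and fibrous tissue genes 0 passed the limma test and 3 were at an unadjusted p under 0.05, with a median log2 fold change of -0.49 that the low values in null libraries 1 and 2 enter.

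Of 10 tested genes for ligands and receptors that the members are known to meet, 2 were higher, 0 lower and 8 did not pass. Among all tested genes 10.5% were called higher and 6.4% lower, and a list this short is a description only. In the list 3 genes were at an unadjusted p under 0.05, all higher. *Cd44*, a receptor for hyaluronan and for lubricin, rose from 93.9 ± 19.9 to 220 ± 22.3 TPM (log2 fold change 1.24, limma adjusted p = 0.00699). *Tgfb2*, a ligand of the TGF-β family, rose from 68.3 ± 22.8 to 146 ± 25.0 TPM (log2 fold change 1.13, limma adjusted p = 0.0233). *Tgfb1*, whose product CILP binds, was at 74.9 ± 24.6 and 112 ± 37.3 TPM (limma adjusted p = 0.206).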

How the data were processed

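RNA-seq of rib chondrocytes from 4 wild-type and 4 *Mir140*-null libraries, 7 d old, was re-analysed. The authors deposited TPM per Ensembl gene, made with Salmon from stranded, poly(A)-selected libraries mapped to the mm10 transcriptome. The submitters' processing notes also name FastQC 0.11.7 and DESeq2. The Salmon version and the step from transcripts to genes are not given in the sources used here. TPM include scaling for length and for the library's total, without the factors of unwanted variation that the study added later, and hold no counts. Repeated lines of an identifier were counted once. No 2 libraries were identical.

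Genes with 0.5 TPM or more in 4 libraries were fitted with limma 3.58.1 in R 4.3.3 on log2(TPM + 1) with a mean-variance trend and genotype as the only term, and adjusted p under 0.05 (Benjamini-Hochberg) was called. The fit was tested on simulated data. Fold changes on this scale are slightly reduced for low genes such as *Cilp*. GENCODE M21 (99.8% of identifiers) gave positions and 3′UTRs, and RefSeq the microRNA. Python 3.11.15, pandas 2.3.3, NumPy 2.4.6, SciPy 1.17.1 and matplotlib 3.10.9 did the rest.

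The genes named were the 10 members, the 2 protein-coding genes at a mean of 5 TPM or more most like each in level (highest Pearson r of log2(TPM + 1)), the called genes of lowest p in each list (up to 4), and genes a sentence turns on. The members and lists were chosen with earlier results of these data known. Alternatives were a pseudocount of 0.1, no filter, a mean of 5 TPM or more, median-ratio and quantile scaling, rescaling without mitochondrial genes, a replicate block, 1 factor of unwanted variation from residuals (RUVr), quality weights per library and the removal of each library in turn.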

Additional observations from a re-analysis of the deposited data

How the results depend on the processing

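The directions of *Clec3a*, *Mia*, *Scrg1*, *Ucma*, *Snorc*, *Cilp2* and *Prg4* were kept in all 19 alternatives, but many of these could not change a direction. No filter, a mean of 5 TPM or more, the replicate block and 1 RUVr factor leave the estimate as it was. For the 4 called genes, whose genotypes did not overlap, neither another pseudocount nor leaving libraries out can reverse the sign. The number of members called higher, 1 as reported, was 0 with the replicate block, 0 with null libraries 3 and 4 alone, and 0 to 1 when 1 library was left out (limma, with 1 or more at an unadjusted p under 0.05 in each). The number called lower, 3 as reported, was 1 with no filter, 1 with the block, 1 with null libraries 3 and 4 alone and 1 to 2 when 1 library was left out. Over all genes 2897 were called, against 1516 with no filter, 1125 with the block, 4476 with 1 RUVr factor, 567 with null libraries 3 and 4 alone and 1202 to 2767 when 1 library was left out.

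Replicate numbers are shared by the genotypes, but the deviations of same-numbered libraries correlated at 0.03, 0.02, 0.07 and -0.01, so the numbers were not taken as pairs, and not every library correlated best with its own number. With the replicate block the adjusted p was 0.0408 for *Clec3a*, 0.0656 for *Ucma*, 0.0690 for *Mia* and 0.0913 for *Scrg1*.

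Signs changed only for members that were not called. *Cytl1* was 0.0154 with median-ratio scaling, 0.0385 without mitochondrial genes, 0.0449 with quality weights, 0.166 with null libraries 3 and 4 alone and -0.103 to 0.0716 when 1 library was left out. *Cnmd* was 0.0101, 0.0332, 0.0129, 0.0184 and -0.084 to 0.0251 in the same order and 0.0733 with quantile normalization, and *Cilp* was 0.35 with null libraries 3 and 4 alone. The cause was not tested. The depth is unknown, which limits what can be said of *Cilp* near 1 TPM.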

Other observations

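The spread between wild-type libraries differed widely among the 10 genes. The coefficient of variation in wild-type was 1.92% for *Cnmd* and 5.54% for *Cytl1*, and 51.5% for *Cilp*. In null libraries it was 2.70% for *Snorc* and 107% for *Cilp*. *Snorc* varied less in null than in wild-type libraries (2.70% against 13.8%) and *Cnmd* more (10.4% against 1.92%), which was noticed after the values were seen and was not tested.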
